A study of Homo sapiens with 6 samples.

Results

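The response of A549 cells to a small interfering RNA (siRNA) against MALAT1 was described from 2 of the 6 libraries of the series, the A549 control library and the A549 si-MALAT1 library, which were taken by cell line and treatment. A549 is a human lung adenocarcinoma line, and H460 and H1299, the other lines of the study, are large-cell and non-small-cell lung carcinoma lines from which a control and a si-MALAT1 library each serve here as context. The si-MALAT1 cells were transiently transfected with the siRNA, the controls carry the label of cells without treatment, and the methods describe negative control cells as well as cells given a control siRNA without naming which were sequenced. The effect of the transfection itself therefore cannot be told apart from that of the siRNA. Total RNA depleted of ribosomal RNA was sequenced, and the deposited read counts summed to 42506818 in the A549 control and 46015222 in the A549 si-MALAT1 library, against 60870796 to 68515992 in the other 4 libraries. There was 1 library on each side, so no fold change has a replicate check and no p-value is given.

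MALAT1 is an abundant long non-coding RNA (lncRNA) of the cell nucleus that gathers in nuclear speckles, the bodies where splicing factors are stored. Its gene sits beside NEAT1, whose RNA builds paraspeckles, and the antisense RNA TALAM1 is made from the opposite strand. An siRNA works by loading a short guide strand into Argonaute, which cuts RNAs that pair with the guide in full, and guide strands can also lower messenger RNAs whose 3′ untranslated regions (3′ UTRs) match only the seed at the guide's 5′ end.

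Of 46427 genes in the table, 14365 had a mean of at least 50 reads over the A549 libraries and were tested. The log2 fold change is that of the si-MALAT1 library over the control library after scaling by size factors and adding 1, and the 95% interval beside it follows exactly (Clopper-Pearson) from how a gene's reads divide between the libraries, so it covers counting error only. Higher and lower mean a difference of at least 1.5-fold. By that rule 1187 genes were higher, 8.26% of those tested, and 1188 were lower, 8.27%. A log2 fold change of 1.5 or more was met by 85 genes (0.592%), and one of -1.5 or less by 95 (0.661%). The median over all tested genes was 0.01.

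The targeted RNA was lower in the library labelled si-MALAT1. MALAT1 had 93747 reads in the control and 14447 with the siRNA, for a log2 fold change of -2.84 (interval -2.87 to -2.82), and its share of all reads went from 0.2205% to 0.0314%. TALAM1 had 1047 and 57 reads, a log2 fold change of -4.32 (-4.75 to -3.96). The exons of TALAM1 overlap other genes on the opposite strand over 88.7% of their bases, and counting by strand was not stated, so its reads and those of MALAT1 may not be separate. NEAT1 had 28255 and 27438 reads and a log2 fold change of -0.19, while its deposited TPM moved the other way, from 47.8 to 67.4. Of the 18 neighbours of MALAT1 that were tested, TALAM1 and POLA2, a subunit of DNA polymerase alpha, were lower and none was higher.

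The identity of the cells was checked against genes known for A549. CDKN2A and CDKN2B, which are deleted in this line, had 0 reads in both libraries, and also in both H460 libraries, so they do not set A549 apart from H460. STK11 and SMARCA4, which carry inactivating mutations in A549, were still read, with 2126 and 2244 reads and with 426 and 496. Read counts do not show a mutation. KRT18 and KRT8, keratins of simple epithelium, had 144327 and 113159 reads in the control, while the epithelial markers EPCAM and KRT19 had 196 and 44. Of markers of other cell types, PTPRC, CD3E and MS4A1 of blood cells, VWF and CDH5 of endothelium and DCN of fibroblasts had 0 reads in both libraries, and CD14 and COL3A1 were the 2 of 11 that were tested.

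**Figure D1:**
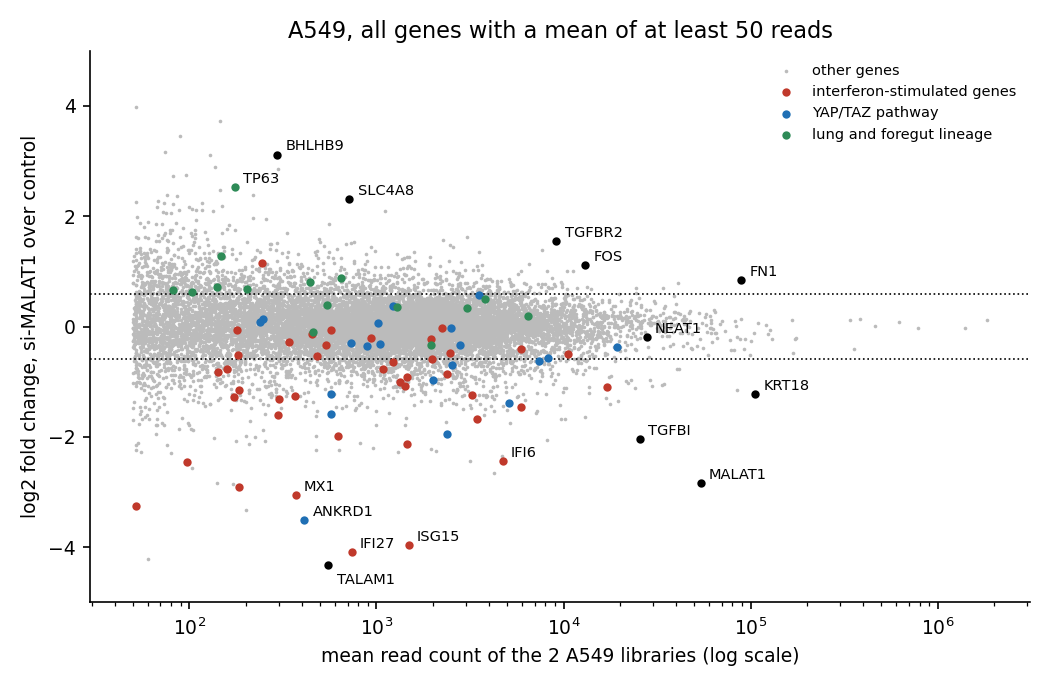
Each point is a gene, plotted by its mean read count in the A549 libraries (x axis, log scale) and its log2 fold change, si-MALAT1 over control (y axis). Dotted lines mark 1.5-fold, 14360 of the 14365 tested genes lie within the axis, and interferon-stimulated genes (red) reach down to IFI27 at -4.09 while most of the lung and foregut genes (green) lie above 0.

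Sequences of 2 kinds are shown here as descriptions. Of 987 protein-coding genes lower in A549, 399 (40.4%) carried the 7-base word TGAATCA or ATGAATC in the 3′ UTR, beside 17.5% of all 12271. The word came from an earlier search of these same data. A site is shown for 5 genes with large falls and for DICER1, which was higher. Capitals mark the word, or the 8 bases where both words overlap, and coordinates are on GRCh38.
PPP1CA, chr11:67398374-67398397, minus strand: tttttttaATGAATCAatagcagc
TGFBI, chr5:136063561-136063584, plus strand: cataaaacATGAATCAagcaatcc
GOLM2, chr15:44415313-44415336, plus strand: gtagggagATGAATCAaaaaatac
CIAO2B, chr16:66932111-66932134, minus strand: ttgttttctTGAATCActcacaat
PGAM1, chr10:97433322-97433345, plus strand: actgatttcTGAATCAtgttctag
DICER1, chr14:95089879-95089902, minus strand: gcatgttggTGAATCAcattttag

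Of 22 promoters of lower interferon-stimulated genes, 16 carried GAAANNGAA, a core that factors of the interferon response recognise. Among promoters of all genes tested in A549 the share was 6.52%. Capitals mark the core in 4 promoters from RefSeq on GRCh38.p14, shown for the 4 interferon-stimulated genes among the 12 protein-coding genes with the largest falls and a mean of at least 200 reads.
IFI27, chr14:94110633-94110657, plus strand: gtttcctgGAAAATGAAacctatct
ISG15, chr1:1013382-1013406, plus strand: gggaaaggGAAACCGAAactgaagc
MX1, chr21:41420561-41420585, plus strand: gcagaaatGAAACCGAAactgaatt
IFI6, chr1:27672291-27672315, minus strand: agagagggGAAAATGAAactgcaga

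Interferon-stimulated genes included 4 of the 12 protein-coding genes with the largest falls in A549 among those with a mean of at least 200 reads. These genes encode sensors of viral RNA, the signalling proteins that answer interferon, and effectors that block viral growth. Of 52 listed genes 41 were tested, 27 were lower and 1 was higher, against 8.27% and 8.26% of all genes, and the median log2 fold change was -0.92 against 0.01. All but 1 of the 41 lay below 0. Among the 12 genes with the largest falls, IFI27, ISG15, MX1, ANKRD1 and BCAT1 met the floor of 200 reads through the control count alone, which favours a low value.

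Among the effectors, IFI27, a mitochondrial protein, had 1382 reads in the control and 89 with the siRNA, a log2 fold change of -4.09 (-4.43 to -3.79). ISG15, a ubiquitin-like modifier, had 2772 and 196 reads, a log2 fold change of -3.96 (-4.18 to -3.76). MX1, a GTPase that traps viral ribonucleoproteins, had 654 and 86 reads, a log2 fold change of -3.06 (-3.41 to -2.75). These 3 genes and IFI44, with 93 and 10 reads (-3.26), had the lowest values of the tested members. IFI44 met the read floor through its control count alone, which favours a low value, so its rank carries little weight. IFI6 went from 7862 to 1602 reads (-2.44), and IFIT1, which binds foreign RNA ends, from 2332 to 590 (-2.13). EIF2AK2, the kinase PKR that halts translation on double-stranded RNA, went from 8464 to 3386 reads (-1.47), and OAS3, which makes the activator of RNase L, from 5134 to 1772 (-1.68). In a bulk library, fewer cells with an RNA and less of that RNA per cell cannot be told apart.

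Among the sensors, IFIH1, which encodes the sensor MDA5, had 435 and 158 reads, a log2 fold change of -1.60 (-1.88 to -1.34). DDX58, which encodes RIG-I, had 1863 and 979 reads (-1.07). The sensor TLR3 went the other way, from 141 to 349 reads, a log2 fold change of 1.16 (0.88 to 1.46). Among the signalling genes, IRF7, a transcription factor that amplifies interferon production, had 976 and 272 reads, a log2 fold change of -1.98 (-2.19 to -1.79). STAT2 (2773 and 2195 reads, -0.48) and IRF1 (957 and 915 reads, -0.21) did not reach 1.5-fold. Several listed genes lay below the read floor. RSAD2 had 34 and 0 reads, which is 12.5-fold lower if the 0 is set to 3 reads. That value makes no allowance for error in the control count. OAS2 had 67 and 4, BST2 had 66 and 4, XAF1 had 74 and 5 and LAMP3 had 15 and 28.

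In the other lines the list had other values. The median of the 41 genes was 0.21 in H460 and -0.57 in H1299, where the medians over all tested genes were both 0.01. The read floor was applied to A549 only, so genes with few reads in those lines are included, such as IFI27 with 62 and 21 in H1299. IFI27 had a log2 fold change of 1.34 in H460, MX1 of 1.04, and IFI6 of 0.64, and ISG15 had 0.37 in H460 and -1.56 in H1299. USP18, which removes ISG15 from proteins, was lower in all 3 lines, at -1.26 in A549, -0.94 in H460 and -1.69 in H1299. The differences between lines were not tested.

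**Figure D2:**
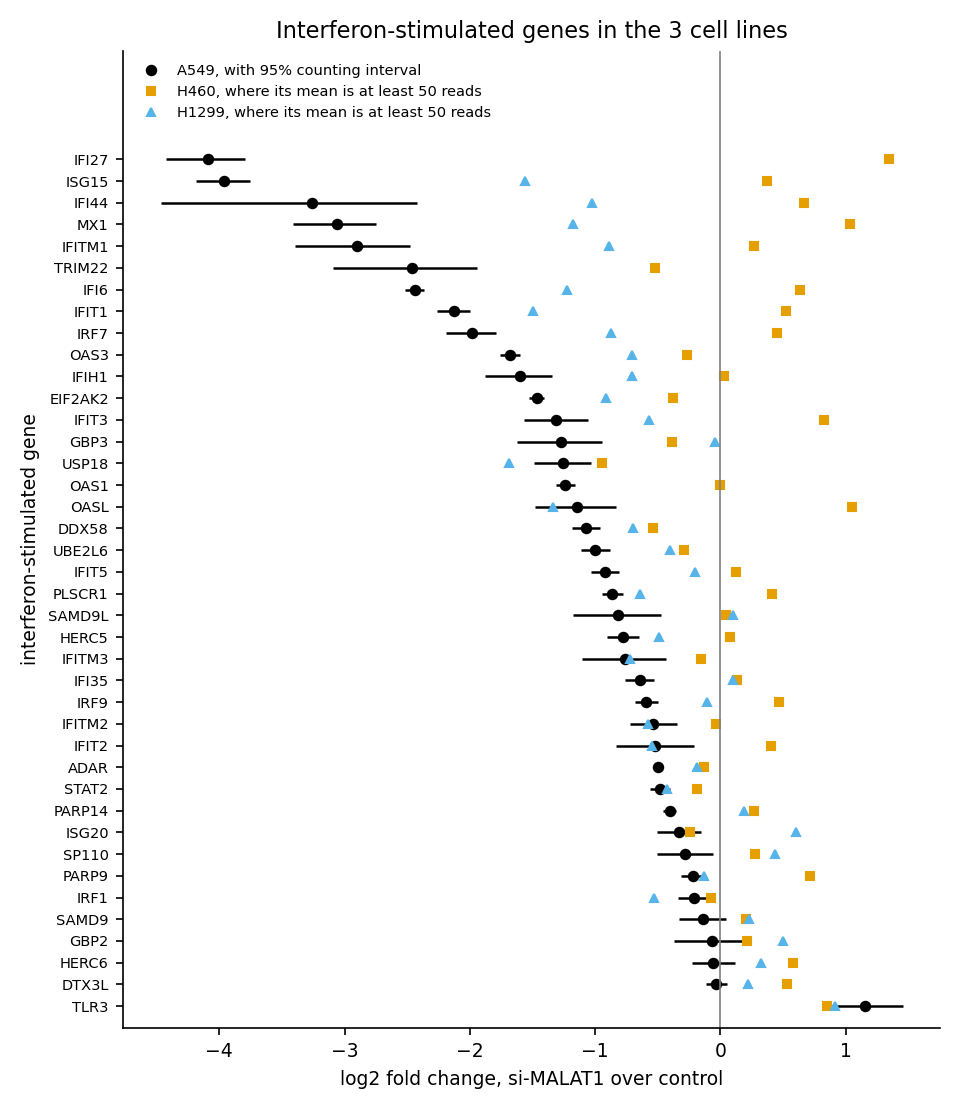
Log2 fold change (x axis) of 40 of the 41 interferon-stimulated genes tested in A549 (y axis, sorted), with black points and bars for A549 and its 95% counting interval, orange squares for H460 and blue triangles for H1299 where that line had a mean of at least 50 reads. A549 values run from -4.09 for IFI27 to 1.16 for TLR3, and several genes at the top have H460 values above 0.

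Promoter sequences were found in RefSeq for 40 of the 52 interferon-stimulated genes. The core GAAANNGAA was searched on both strands from 250 bases before to 50 bases after the start site, and 8.29% of all promoters of that length held it, or 6.52% of those of genes tested in A549. It was present in 16 of 22 promoters of lower interferon-stimulated genes (72.7%) and in 5 of 11 of those tested but not lower (45.5%). Among other genes lower in A549 it was present in 6.66%, and among higher genes in 6.79%. ISG15 and IFI6, whose sites are printed above, each held 3 matches.

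In the MHC class I pathway, which displays peptides at the cell surface, 2 of 18 tested genes were lower and 0 were higher, a share of lower genes near the 8.27% of all genes, and the median was -0.36. HLA-B had 1059 and 463 reads, a log2 fold change of -1.34 (-1.5 to -1.18), and HLA-C had 2037 and 1343 (-0.75). B2M, the light chain they share, had 16158 and 13874 reads (-0.36). Reads of HLA genes can be split between near-identical copies, so these values are uncertain. Of 20 chemokine, cytokine and NF-kB genes, 8 were lower and 0 were higher, against 8.27% and 8.26% of all genes. Over the genes tested in A549, the list median was -0.27 in A549, -0.51 in H460 and -0.08 in H1299. IL11, a cytokine of the IL-6 family, had 700 and 266 reads (-1.54), CCL2, which attracts monocytes, had 372 and 153 (-1.42), and LIF had 4752 and 2890 (-0.86). LIF was 0.81 in H1299.

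The YAP/TAZ pathway, in which the coactivators YAP1 and TAZ bind TEAD factors and switch on genes of growth and adhesion, included ANKRD1 among the genes with the largest falls. Of 20 genes 8 were lower and 0 higher, against 8.27% and 8.26% of all genes, and the median was -0.36. Among the targets, ANKRD1 had 749 reads in the control and 72 with the siRNA, a log2 fold change of -3.51 (-3.89 to -3.17). AMOTL2, which binds and restrains YAP1, had 3686 and 1053 reads, a log2 fold change of -1.95 (-2.05 to -1.85). CCN2 had 831 and 307 reads (-1.58), and CCN1 had 780 and 369 (-1.22). Both encode secreted matrix-associated proteins. Among the components, WWTR1, which encodes TAZ, had 7177 and 3033 reads, a log2 fold change of -1.39 (-1.45 to -1.33), YAP1 had 3031 and 2063 (-0.70) and TEAD1 had 8613 and 6163 (-0.63). In H460 the values were -1.04 for ANKRD1, -0.72 for AMOTL2 and -0.78 for WWTR1, and in H1299 AMOTL2 and WWTR1 were both at -0.46.

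Growth-factor signalling genes split. Of 17 genes that report or dampen MAPK activity, 6 were lower and 2 higher, against 8.27% and 8.26% of all genes. EPHA2, an ephrin receptor, had 5839 and 2368 reads (-1.45), DUSP5, a phosphatase of ERK, had 5851 and 2602 (-1.31), and the factor ETV4 had 2286 and 1188 (-1.09). EGR1 had 222 and 896 reads, a log2 fold change of 1.86 (1.65 to 2.09), and CCND1, which encodes cyclin D1, had 6125 and 11614 (0.78). Among 17 immediate early genes, 7 were higher and 2 lower. FOS, a subunit of AP-1, had 7677 and 18442 reads, a log2 fold change of 1.12 (1.08 to 1.16), beside 2.94 in H460 and 2.58 in H1299. KLF4 had 257 and 787 reads (1.47), beside -0.30 and 0.38 in the other lines. FOSL2 went down, from 5377 to 3264 reads (-0.86), and was -0.79 in H460 and 0.64 in H1299.

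Genes of epithelial structure and matrix moved in both directions. Of 25 epithelial and mesenchymal genes 6 were higher and 6 lower, against 8.26% and 8.27% of all genes. The keratins KRT18, with 144327 and 68068 reads (-1.23), KRT8, with 113159 and 56171 (-1.16), and KRT7, with 44716 and 23990 (-1.04), were all lower. KRT8 and KRT18 have many near-identical pseudogenes, which could share their reads. In H460 and H1299 KRT8 was -0.22 and -0.22. KRT19, a further keratin, was read 44 and 121 times (1.3), and EPCAM 196 and 485 times (1.16). KRT19 met the read floor through its si-MALAT1 count alone, which favours a high value. TGFBI, a matrix protein induced by TGF-beta, had 40328 and 10871 reads, a log2 fold change of -2.04 (-2.07 to -2.01), beside -0.68 in H460 and -0.24 in H1299. TGFBR2, the receptor that binds TGF-beta, had 4320 and 13984 reads, a log2 fold change of 1.55 (1.5 to 1.6), beside -0.15 and 2.02. FN1, which encodes fibronectin, had 59911 and 118543 reads (0.84).

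Of 25 collagen, laminin and integrin genes 6 were higher and 4 lower, against 8.26% and 8.27% of all genes. The 3 higher matrix genes were COL4A1, LAMC1 and COL1A1, and no matrix gene was lower. Integrins, the receptors for matrix, were lower for ITGAV, with 25143 and 10472 reads and a log2 fold change of -1.41 (-1.44 to -1.38), for ITGB3 (197 and 86 reads, -1.33), for ITGA3 (-0.78) and for ITGB4 (-0.73). ITGA1 (0.93), ITGB8 (0.88) and ITGA2 (0.74) were higher.

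Genes of lung and foregut lineage stood on the higher side. Of 23 listed genes 15 were tested, 8 were higher and 0 lower, against 8.26% and 8.27% of all genes, and the median was 0.64. TP63, a factor of basal cells, had 47 and 304 reads, a log2 fold change of 2.53 (2.1 to 3.02). TP63 met the read floor through its si-MALAT1 count alone, which favours a high value. SOX2, a factor of the airway and foregut, had 80 and 216 reads, a log2 fold change of 1.28 (0.91 to 1.68), and SOX9 had 301 and 585 (0.81). MUC5B (100 and 182 reads), NAPSA (76 and 131) and MUC1 (59 and 104), which encode secreted or surface proteins, were higher by 0.64 to 0.71 on the log2 scale. NKX2-1, SFTPB, SFTPA1, SFTPA2 and SCGB1A1, which mark surfactant-making and club cells, had 0 reads in both libraries. Of the 8 higher members 6 had a mean below 224 reads, and in the fifth of all tested genes with the fewest reads 19.1% were higher. On the deposited TPM scale with 1 added, 5 of the 15 were higher.

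Secreted plasma proteins of the complement and acute phase list were higher for 5 of 17 genes and lower for 1. Over all tested genes the shares were 8.26% and 8.27%. C3, the central complement protein, had 1856 and 5212 reads, a log2 fold change of 1.34 (1.27 to 1.42), APOH had 1397 and 3513 (1.19) and SERPINA1, which encodes alpha-1 antitrypsin, had 343 and 845 (1.15). Of 13 aldehyde dehydrogenases 3 were higher and 0 lower.

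**Figure D3:**
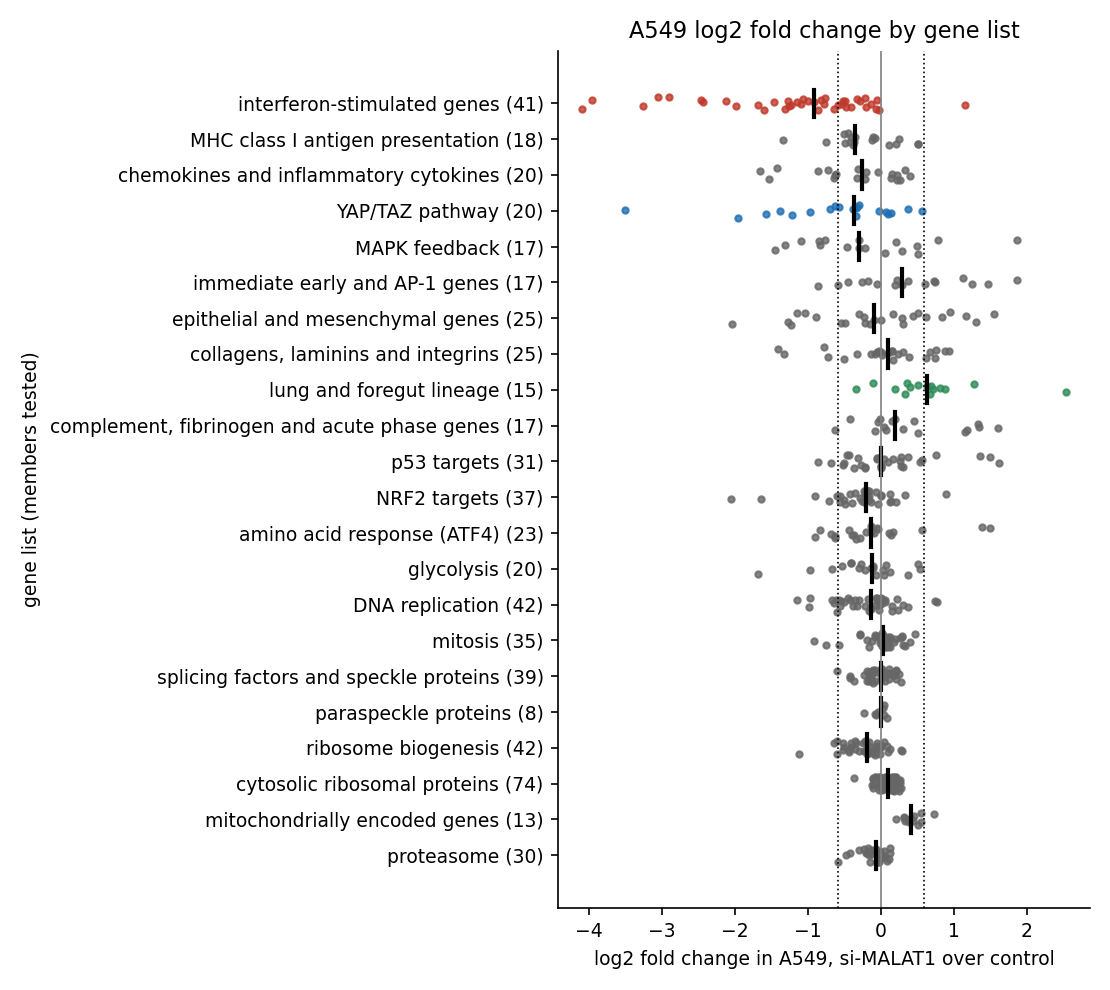
Each point is a gene of the list named on the y axis (with the number tested), placed by its A549 log2 fold change (x axis), with black bars at list medians and dotted lines at 1.5-fold. Interferon-stimulated genes have the lowest median shown, -0.92, lung and foregut genes the highest, 0.64, and ribosomal protein genes all stay between -0.37 and 0.27.

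Of 31 p53 targets 4 were higher and 2 lower, shares near the 8.26% and 8.27% of all genes, with a median of 0.01. TP53INP1, which promotes cell death and autophagy, had 1383 and 4714 reads, a log2 fold change of 1.62 (1.54 to 1.71), beside 1.27 in H460 and 1.44 in H1299. The sestrin SESN2, which restrains mTORC1, had 334 and 1040 reads (1.49). CDKN1A, which encodes the cell cycle inhibitor p21, had 3364 and 3721 reads, and MDM2, which degrades p53, had 11214 and 9566 (-0.37). RRM2B, a subunit of ribonucleotide reductase, had 6482 and 3929 reads (-0.87). Of 37 NRF2 targets 5 were lower and 1 higher, and 30 lay below 0. Their median was -0.205, and the quartiles over all tested genes were -0.234 and 0.254. A549 is known for constant NRF2 activity. TALDO1, an enzyme of the pentose phosphate pathway, had 12854 and 3434 reads, a log2 fold change of -2.05 (-2.10 to -1.99), and SLC7A11, the cystine importer, had 22601 and 13413 (-0.90). GPX2, a glutathione peroxidase, had 5694 and 11662 reads (0.89), and 0 reads in H460 and H1299. Of the 23 amino acid response genes 5 were lower, with ATF4 itself at 9442 and 5843 reads (-0.84), and 2 were higher.

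Metabolic and growth lists differed in how many members passed the threshold, beside 8.26% higher and 8.27% lower among all tested genes. Of 20 glycolysis genes 3 were lower: PGAM1, with 15221 and 5251 reads (-1.68), PFKP, with 29202 and 16501 (-0.97), and the glucose transporter SLC2A1, with 4180 and 2917 (-0.66). Reads of PGAM1 may be split with its near-identical copy PGAM4. PFKP was -0.12 in H460 and -0.23 in H1299. Of 30 sterol and fatty acid genes, LSS was lower (-0.73) and none was higher. Of 42 DNA replication genes 7 were lower and 2 higher. RFC5, a part of the clamp loader, had 2745 and 1363 reads (-1.15), E2F1 had 1806 and 1020 (-0.97), and RRM2, which supplies deoxynucleotides, had 6830 and 12913 (0.77). The replication median was -0.14 in A549, 0.25 in H460 and -0.75 in H1299, and 2 of 35 mitosis genes, MAD2L1 (-0.92) and ECT2 (-0.75), were lower.

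Most genes of splicing factors, speckles and paraspeckles stayed near 0. Of 39 splicing factor and speckle genes, SRRM1, a splicing coactivator, was the 1 that was lower, with 1240 and 905 reads (-0.60), and none was higher. The 8 paraspeckle protein genes lay between -0.23 and 0.09. All 74 cytosolic ribosomal protein genes lay within 1.5-fold, as did the 32 nuclear-encoded genes of oxidative phosphorylation. The 13 mitochondrially encoded genes all lay above 0, with a median of 0.42 against 0.01 over all tested genes. Their median was -0.22 in H460 and 0.32 in H1299, and their share of A549 reads went from 0.1691% to 0.2403%. Of 13 Argonaute and microRNA processing genes 3 were higher and 1 lower, against 8.26% and 8.27% of all genes. DICER1, which trims microRNA precursors, had 5050 and 11178 reads, a log2 fold change of 1.00 (0.95 to 1.05). TNRC6C (0.91) and AGO2 (0.61) were also higher, and DROSHA (-0.60) was lower.

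The same 12 protein-coding genes with the largest falls also held genes outside the interferon and YAP/TAZ lists. PPP1CA, a catalytic subunit of protein phosphatase 1, had 7709 and 1682 reads, a log2 fold change of -2.34 (-2.42 to -2.26), beside -1.40 in H460 and -2.20 in H1299. GOLM2, a Golgi membrane protein, had 5247 and 1074 reads (-2.43), and CIAO2B, which helps place iron-sulfur clusters, had 2130 and 489 (-2.27). TMEM64 (-2.25), MAIP1 (-2.24) and BCAT1, which breaks down branched-chain amino acids (-2.24), followed. In the other lines these 6 genes had log2 fold changes from -2.20 to -0.73. LOC112694756 had 7262 and 1276 reads (-2.65), beside -1.35 and 1.23, but 53.3% of its exon bases are shared with other genes of the same strand, so its reads may belong to them.

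At the other end, SLC4A8, a bicarbonate transporter, had 220 and 1210 reads, a log2 fold change of 2.31 (2.11 to 2.53), beside 2.83 in H460 and 0.28 in H1299. IL6R, the receptor of interleukin 6, had 390 and 1837 reads, a log2 fold change of 2.09 (1.93 to 2.25), beside 1.25 and 1.5, and 33.9% of its exon bases lie opposite a gene of the other strand. YOD1, a deubiquitinase, had 1066 and 3492 reads (1.57), DGAT2, which makes triglycerides, had 228 and 758 (1.59), and RTKN2 had 144 and 517 (1.69). RTKN2 was 0.36 in H460 and 0.15 in H1299. BHLHB9 had the largest rise among protein-coding genes with a mean of at least 200 reads, from 55 to 534 reads (3.12), beside -0.06 and -0.25. It shares 96.3% of its exon bases with ARMCX5-GPRASP2 on the same strand. BHLHB9 and RTKN2 met the floor of 200 reads through their si-MALAT1 counts alone, which favours high values.

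**Figure D4:**
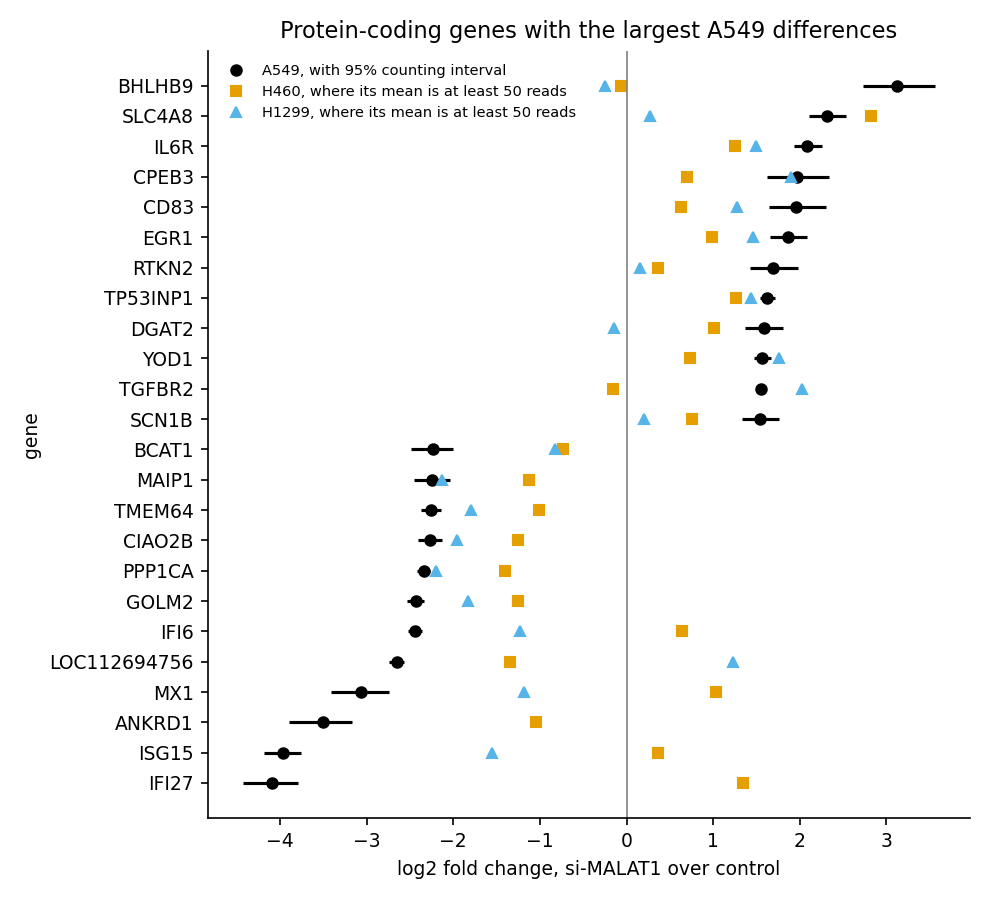
Log2 fold change (x axis) of the 24 protein-coding genes with the largest A549 differences and a mean of at least 200 reads (y axis), with black points and bars for A549 and its 95% counting interval, orange squares for H460 and blue triangles for H1299 where that line had a mean of at least 50 reads. PPP1CA, GOLM2 and CIAO2B are below 0 in all 3 lines, while IFI27 and MX1 are above 0 in H460.

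Among lncRNAs, GACAT2 had 746 and 207 reads, a log2 fold change of -1.99 (-2.22 to -1.77), with 66.7% of its exon bases opposite a gene of the other strand, and LINC00339 had 697 and 250 (-1.62). LOC107986148 went from 350 to 1103 reads (1.51), beside 1.42 in H460. Of 90 tested readthrough genes, which span neighbouring genes, 21 were higher and 20 lower, beside 8.26% and 8.27% of all genes. UBE2F-SCLY had 607 reads in the control and 0 after si-MALAT1, which is 224-fold lower if the 0 is set to 3 reads. That value makes no allowance for error in the control count. SCLY, whose exons UBE2F-SCLY contains, had 343 and 625 (0.72). RTEL1-TNFRSF6B had 64 and 372 reads (2.38), beside -2.94 in H460, and shares 99.8% of its exon bases with other genes of its strand. How the counting assigned reads between such overlapping genes was not tested.

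The higher and lower genes differed in depth. The median of the mean read counts was 265 for higher genes, 717 for lower genes and 1042 for all tested genes. Protein-coding genes higher in A549 had a median control TPM of 2.4, beside 11.0 for lower ones and 10.3 for all. In the fifth of genes with the most reads, 3.86% were higher and 7.76% lower. The counting interval lay wholly past 1.5-fold for 558 of the 1187 higher genes and for 678 of the 1188 lower genes.

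The word TGAATCA or ATGAATC, printed above for 6 genes, had been found in an earlier search of these same data, so the following values describe it and do not test it. Of 12271 protein-coding genes with a 3′ UTR on GRCh38, 17.5% held either word. The share was 40.4% among genes lower in A549, or 399 of 987, and 11.0% among higher genes, or 99 of 901. Among genes with a log2 fold change of -1.5 or less, 34 of 74 held a word (45.9%). The 8-base overlap ATGAATCA, as in PPP1CA and TGFBI, was present in 3.64% of all genes and in 118 of the 987 lower genes.

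The share of lower genes was also counted by the number of matches. With 0 matches 5.81% were lower, with 1 match 16.4%, with 2 matches 27.0%, and with 3 or more 24.6%. The median log2 fold change in A549 went from 0.03 with 0 matches to -0.24 with 2. For the same genes it went from 0.04 to -0.145 in H460 and from 0.04 to -0.103 in H1299. Among genes with 3′ UTRs of up to 740 bases, 37.4% of the 115 genes with a word were lower and 7.04% of genes without. From 741 to 2154 bases the shares were 21.9% of 552 genes and 5.26%, and above that 15.9% of 1482 genes and 4.68%. A word in the coding part alone went with 6.55% lower, beside 5.68% with a word in neither part. The sequence of the siRNA is not given in the sources used here, so pairing of its guide or passenger strand with the word was not tested.

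**Figure D5:**
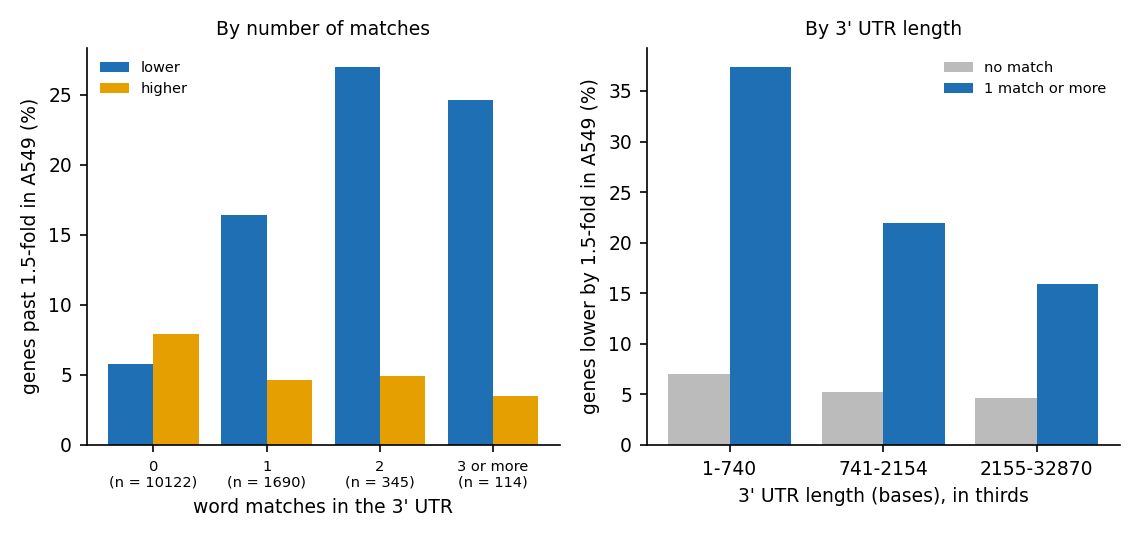
Left, the percentage of protein-coding genes lower (blue) or higher (orange) by 1.5-fold in A549 (y axis) by the number of word matches in the 3′ UTR (x axis); right, the percentage lower without (grey) and with (blue) a match, by 3′ UTR length. The share of lower genes goes from 5.81% with 0 matches to 27.0% with 2, and is higher with a match than without in each length bin.

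The word was then counted in the gene lists. Of the 27 lower interferon-stimulated genes 6 held it, and neither IFI27, ISG15, MX1 nor IFI6 did. Of the 8 lower YAP/TAZ genes 1 held it, and ANKRD1 did not. Of the 5 lower NRF2 targets 4 held it, TALDO1 and UGDH among them, and so did 8 of the 11 lower genes that the study singled out, which were chosen on these libraries. GOLM2 held 3 matches, BCAT1 and ITGAV 2 each and TBL1XR1, a subunit of the NCoR corepressor complex, 6. A match did not always go with a lower level: DICER1 and SESN1 each held 2 and were higher.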

How the data were processed

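Total RNA of A549, H460 and H1299 cells was sequenced as 1 control and 1 si-MALAT1 library per line. The authors trimmed the reads with Trimmomatic, aligned them to hg38 with HISAT2 2.1.0 and made the deposited read counts per gene, whole numbers that are not normalized, with StringTie on an NCBI annotation. The submitters' processing notes name StringTie 1.3.4b, which is not the version in the methods. The deposited TPM are the authors' abundances corrected for gene length and depth. Counting by strand was not stated. A further 18 columns belong to other samples and were not used, and the deposited FPKM were not used either.

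Size factors (RLE, from all 6 libraries) were applied to the counts, and the log2 fold change was taken on scaled counts plus 1, which understates the change of genes with few reads. Genes with a mean of at least 50 reads in A549 were kept, which hold 99.75% of the A549 reads. A gene can pass this floor, or the floor of 200 reads used for naming genes, through 1 library alone, which favours a large difference toward that library. Intervals were Clopper-Pearson at 95%, and reads without molecular identifiers are not independent molecules. The method was run on simulated counts that held counting error only, which is what the intervals assume. That check cannot show how replicate libraries would differ. The members and the 38 gene lists, of 899 symbols in all, were chosen with earlier results of these data known. Genes were named by rule, with a mean of at least 200 reads: the 12 protein-coding genes each way with the largest difference (readthrough genes left out), the 4 lncRNA genes each way, the 5 each way whose A549 value lay farthest beyond both other lines, the 10 with the highest control TPM, the extremes and the most read member of each list, the MALAT1 locus, and the genes that the study singled out. Other list members are named to show what a list holds, and were chosen after their values were seen. Some list members are counted in their lists but not reported here by name.

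The 3′ UTRs were rebuilt from the deposited NCBI annotation on hg38, with the NM_ transcript of the longest coding part for each gene, and 99.804% of 19354 rebuilt coding parts began with ATG. Promoters and names are from RefSeq. Alternatives were RLE over the A549 libraries, TMM, total counts, TPM, a pseudocount of 10, and 3 other filters. Analyses used Python 3.11.15, pandas 2.3.3, scipy 1.17.1, R 4.3.3 and edgeR 4.0.16 (for TMM).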

Additional observations from a re-analysis of the deposited data

Results flagged for a closer look

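For 9 pairs of values, genes named by rule differed by at least 1.5-fold in A549 and by at least 1.5-fold the opposite way in another line, with a mean of at least 200 reads in each. The differences between lines were not tested, since each rests on 1 library per side. Among interferon-stimulated genes, IFI27 had log2 fold changes of -4.09 in A549 and 1.34 in H460, MX1 of -3.06 and 1.04, and IFI6 of -2.44 and 0.64. FOSL2, an AP-1 factor, was at -0.86 in A549 and 0.64 in H1299.

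The other pairs were genes whose exons overlap their neighbours. LOC112694756, which overlaps the glycolysis gene ALDOA, was at -2.65 in A549 and 1.23 in H1299. RTEL1-TNFRSF6B was at 2.38 in A549 and -2.94 in H460, and CHKB-CPT1B at 1.13 in A549 and -1.01 in H1299. UBE2F-SCLY, with 0 reads in the A549 si-MALAT1 library, was at 5.01 in H460, and SCLY was at 0.72 in A549 and -0.79 in H460. How reads were divided between these overlapping genes was not tested.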

How the results depend on the processing

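With 1 library per side, no result has a replicate check, and depth limits the genes with few reads most. Under RLE over the A549 libraries, TMM, total counts and a pseudocount of 10, the counts of higher and lower genes stayed within 1.5 times. On log2(TPM + 1), 598 genes were higher, and 6 and 42 passed a log2 fold change of 1.5 upward and downward; adding 1 to a low TPM itself shrinks its fold change. Without a filter, 5021 genes were higher and 4458 lower, with 2264 and 1813 past 1.5 on the log2 scale. With a read in each of the 6 libraries, these were 2056, 2031, 300 and 299. With a mean of 200 reads, 675 were higher, and 18 and 53 passed 1.5 upward and downward. Of the lung and foregut genes, 5 of 15 were higher on the TPM scale and 3 of 10 with a mean of 200 reads. Lower interferon-stimulated genes numbered between 20 of 32, with a mean of 200 reads, and 35 of 52, without a filter. The main setting had 27 of 41. Of 20 YAP/TAZ genes, 8 or 9 were lower under the alternatives. All 92 named genes past 1.5-fold kept their direction under the 5 other scalings, and 85 to 92 of them stayed past it. With the transcript of the longest 3′ UTR, an alternative chosen after seeing the data, 41.7% of lower and 12.1% of higher genes held a word. No paired analysis was possible because the comparison lies within A549, which has 1 library per side; a fit blocked by cell line over all 6 libraries would describe what the 3 lines share and was not run here.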

Other observations

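Some fixed lists not described above also had members past 1.5-fold in A549, where 8.26% of all tested genes were higher and 8.27% lower. Among 17 hypoxia-inducible genes, ADM, which encodes a vasodilator peptide, had 5670 and 3405 reads (-0.88), NDRG1 had 10221 and 6635 (-0.77) and ANGPTL4 had 2408 and 1729 (-0.62), and none was higher. Among 14 endoplasmic reticulum chaperone and degradation genes, EDEM1, which sends misfolded glycoproteins to degradation, had 2892 and 1550 reads (-1.04), while DNAJB9, a cochaperone of BiP, had 955 and 1857 (0.81) and XBP1, a factor of the unfolded protein response, had 3538 and 6053 (0.63). XBP1 was at -0.53 in H460. Among 26 lysosome genes, LIPA, the acid lipase, had 5329 and 10017 reads (0.77), and CTSL, a cathepsin, had 14611 and 10271 (-0.65).

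Of 42 ribosome biogenesis genes 4 were lower (NOL6, RRP9, BOP1 and HEATR1), a share near the 8.27% of all genes. None was higher, and 35 lay below 0, with a median of -0.18 against 0.01 over all tested genes. Of 19 receptor kinase and RAS genes, INSR, the insulin receptor, was lower at 1744 and 1144 reads (-0.75), while NRAS had 3626 and 6134 (0.61) and FGFR2 had 107 and 204 (0.78). Of 30 proteasome genes PSMA3 was lower (-0.59), of 15 small nucleolar RNA host genes SNHG3 was lower (-0.6), and of 15 heat shock genes HSPA1A (-0.6) and HSPA1B (-0.73), whose reads can be split between near-identical copies, were lower. Of 7 aryl hydrocarbon receptor genes AHRR was lower, with 120 and 0 reads, or 44.2-fold if the 0 is set to 3 reads. However, 97.2% of its exon bases are shared with the readthrough gene PDCD6-AHRR, and AHRR met the read floor through its control count alone. The 10 listed abundant noncoding RNAs, among them RN7SK, which holds back transcription elongation, and RMRP, lay between -0.22 and 0.43. Of 11 markers of other cell types, CD14 had 219 and 490 reads (1.01).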
